A study of Rattus norvegicus with 65 samples.

Results

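Gdf15 and Atf3 are 2 stress-induced genes out of the 14554 genes measured in neonatal rat cardiomyocytes exposed to cardiotoxic drugs. They were taken by name from the table of counts, where Gdf15 has the Entrez identifier 29455 and Atf3 the identifier 25389, and both were counted in all 65 libraries. They were selected on their measured levels under 5-fluorouracil (5FU) and acetaminophen (Ace). In that choice 5FU was the drug with an early and Ace the drug with a late response. The values of both genes under these drugs are therefore described without a test. The control libraries entered the choice too. Tests of either gene that use them, those of doxorubicin against its control included, are not independent of it. The cells were heart muscle cells from newborn rats, serum-starved overnight and kept in serum-free medium during exposure to 10 mM 5FU, 2.5 mM Ace or 1.25 μM doxorubicin (Dox) for 6 or 24 hours. DMSO1 wells received 1% DMSO, the vehicle of 5FU, and DMSO2 wells received 0.25% DMSO, the vehicle of Ace and Dox. Each group had 6 libraries, except Dox and DMSO2 at both times and Ace at 24 hours, which had 7. Hearts of several litters went into a shared pool of cells, which makes the libraries parallel wells of a single preparation, and a p-value here measures the spread between wells. No strain, sex or genotype was given in the sources used here.

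Gdf15 encodes growth differentiation factor 15, a secreted and distant member of the TGF-β superfamily that damaged heart muscle releases into the blood. It signals through the brain receptor GFRAL and its partner RET and lowers appetite and body weight. Atf3 encodes a leucine zipper transcription factor of the ATF/CREB family that is induced within hours by many kinds of stress and binds DNA as a homodimer or with JUN proteins. Both genes are known targets of the integrated stress response, in which kinases of eIF2α slow translation and favour that of the transcription factor ATF4, and of p53, the transcription factor activated by DNA damage.

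The promoter of Gdf15 is shown because the members of several of these pathways, described further on, are sequence-specific DNA-binding proteins. RefSeq lists 2 starts for Gdf15 on chromosome 16 of the assembly GRCr8, both on the plus strand. No entry for Atf3 was matched. The window at the downstream start covers chr16:18839015-18839314, 250 bases before the start and 50 bases from it on, with a GC content of 61.3%. Capitals mark GC boxes (GGGCGG on either strand), a TATA box (TATAAA) and a match to the EGR1 motif (GCGNGGGCG).

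Gdf15 start 2: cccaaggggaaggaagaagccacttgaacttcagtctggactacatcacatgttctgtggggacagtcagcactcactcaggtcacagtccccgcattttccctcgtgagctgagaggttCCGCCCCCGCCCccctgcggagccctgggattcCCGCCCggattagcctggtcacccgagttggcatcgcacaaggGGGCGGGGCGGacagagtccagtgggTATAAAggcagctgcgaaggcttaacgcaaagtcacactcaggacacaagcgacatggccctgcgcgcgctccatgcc

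The window holds 5 GC boxes, with the TATA box 28 bases before the start. The EGR1 match overlaps 2 of the GC boxes. Among 33469 promoter windows of the same length, 33.1% hold a GC box, 14.2% a TATA box and 4.98% the EGR1 motif. The cyclic AMP response element (TGACGTCA, in 1.83% of windows), the composite CEBP-ATF element (TGATGNAA, 3.98%), the AP-1 site (TGANTCA, 7.33%) and the p53 half-site (7.98%) were searched on both strands and are not in this window, nor in that of the upstream start at chr16:18838186-18838485. These are matches of letters in a short window and say nothing of binding elsewhere.

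Library totals ran from 14332827 to 25738297 estimated counts. Levels below are CPM (counts scaled to the library total) after scaling with TMM factors, and levels of the pair are not compared with each other because gene length was not used. The lowest count of Gdf15 in any library was 97 and that of Atf3 was 50, so neither gene was near the detection limit. Cardiomyocyte markers were present in every group, with 9 of the 10 listed in the table and none at 0. Their summed level was 33384 to 52721 CPM in all groups other than 5FU at 24 hours (23814 to 25646) and Dox at 24 hours (12414 to 16643). Fibroblast markers were lower in all drug groups at 24 hours, with sums of 1933 to 4089 CPM in Dox and 7285 to 9314 in Ace against 15181 to 18969 in DMSO2, and of 5207 to 5876 in 5FU against 10026 to 19968 in DMSO1. Smooth muscle markers at 6 hours had a median sum of 7390 CPM in DMSO1, 6787 in 5FU and 8316 in Dox against 3908 in DMSO2 and 3614 in Ace. Over all libraries the sums were 157 to 473 CPM for endothelial and 52.9 to 154 for macrophage markers. In bulk RNA, fewer cells of a type and less RNA per cell cannot be told apart.

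Library 1 of DMSO1 at 24 hours stood apart from the other 5 wells of its group in the direction of 5FU. Its place was taken over 789 genes that differed between 5FU and those 5 wells by at least 1 on the log2 scale. These genes also had an FDR below 0.01 and a mean count of at least 100. The median place of library 1 on the way from the control mean (0) to the 5FU mean (1) was 0.415, with quartiles of 0.262 and 0.556. The medians of the other 5 libraries lay between -0.012 and 0.011. Values near 0 follow there from the selection, since the genes were selected against those same wells. Cdkn1a, the p53-induced inhibitor of the cell cycle, stood at 699 CPM in this library, at 95.8 to 114 in the other controls and at 841 to 913 in 5FU. Mdm2, which targets p53 for degradation, stood at 191 CPM against 51.6 to 59.7 in the other controls and 185 to 216 in 5FU. The cause was not tested. Values of Gdf15 and Atf3 against this group and list counts for 5FU at 24 hours are given with and without this library. In DMSO1 at 6 hours the wells varied widely in Nppb, the natriuretic peptide gene of stretched and stressed heart muscle, from 30.7 to 883 CPM, while DMSO2 at 6 hours held 28.0 to 40.2.

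**Figure D1:**
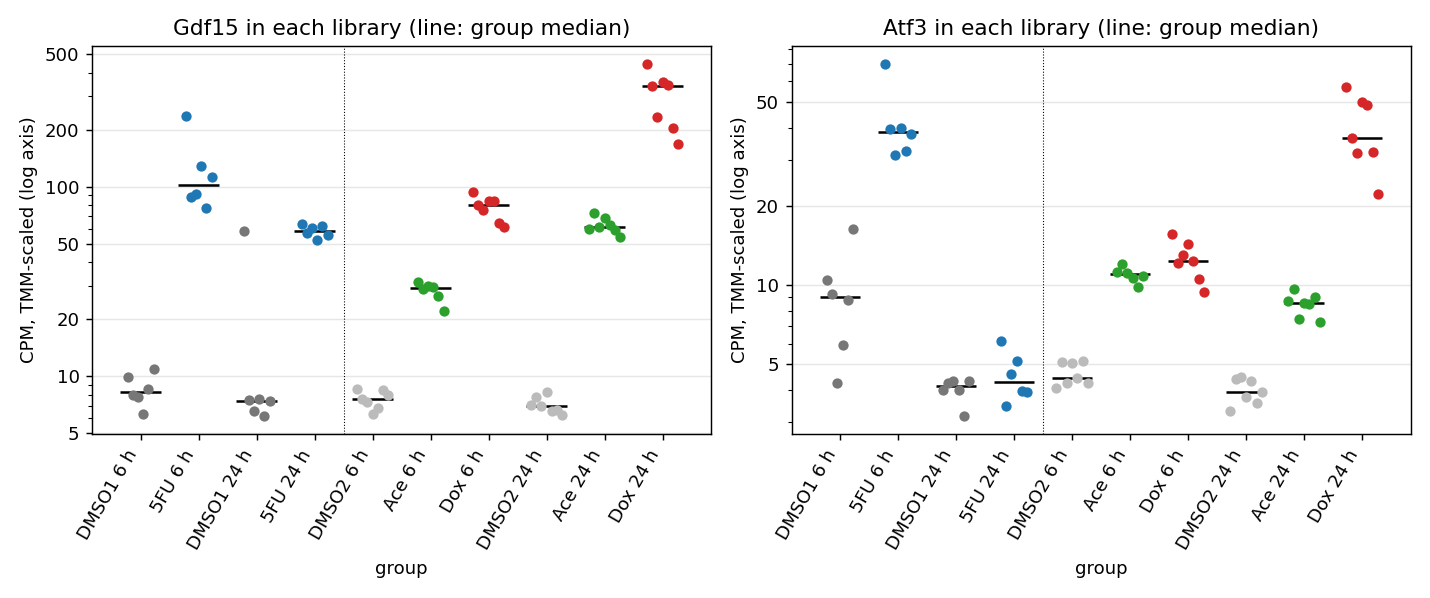
Level of Gdf15 (left) and Atf3 (right) in CPM on a log axis, 1 point for each library and a line at the group median, with the 5FU groups and their control left of the dotted line. Gdf15 was above the DMSO level in all drug groups, apart from library 1 of DMSO1 at 24 hours, whereas Atf3 in 5FU at 24 hours lay at the level of its control.

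In the absence of drug Gdf15 was low and steady. At 6 hours the 6 DMSO1 libraries held 9.90, 7.95, 7.77, 6.29, 8.51 and 10.9 CPM, and the DMSO2 libraries ran from 6.31 to 8.55 with a median of 7.57. At 24 hours DMSO2 ran from 6.27 to 8.24 with a median of 6.92. Library 1 of DMSO1 at 24 hours held 58.5 CPM, inside the range of 5FU at that time, while the other 5 held 6.14 to 7.54. The levels of the control groups overlapped, apart from that library.

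Tests between the controls gave no call for Gdf15 in the main fit, unlike some alternatives given at the end. These tests, and those of Atf3 below, use libraries that entered the choice of the genes. DMSO1 against DMSO2 differed by 0.18 ± 0.33 (log2 fold change ± standard error) at 6 hours (edgeR quasi-likelihood test, FDR = 0.75), a comparison in which 16.5% of all genes were called at an FDR below 0.01. At 24 hours the difference was 1.17 ± 0.32 (edgeR FDR = 0.031, 0.433% of genes called), and without library 1 it was -0.0079 ± 0.23 (edgeR FDR = 0.999, 0.0687% called). From 6 to 24 hours Gdf15 moved by -0.10 ± 0.33 in DMSO2 (edgeR FDR = 0.82, 52.6% called). In DMSO1 the same interval gave 0.89 ± 0.32 (edgeR FDR = 0.013, 53.8% called) and, without library 1, -0.28 ± 0.23 (edgeR FDR = 0.29, 53.4% called).

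Atf3 differed between the controls at 6 hours. The DMSO1 libraries held 10.5, 9.29, 4.24, 5.93, 8.76 and 16.4 CPM, and the DMSO2 libraries 4.04 to 5.15 with a median of 4.42. Of the 6 DMSO1 libraries, 5 lay above all DMSO2 libraries and library 3 lay within their range. The difference was 0.98 ± 0.19 on the log2 scale (edgeR FDR = 6.5e-05, 16.5% of genes called), or 1.98-fold. Summed smooth muscle markers were 4387 to 9958 CPM in these DMSO1 wells and 3692 to 4421 in DMSO2, and their part in the difference was not tested.

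The order of Atf3 among the 6 wells of DMSO1 resembled that of Nppb, Jun and Atf4. The share of all genes with a like order was not determined. Library 3, the lowest in Atf3, was also the lowest in Nppb (30.7 CPM), in Jun, the AP-1 subunit that pairs with ATF3 (72.6 against 98.7 to 175), and in Atf4 (158 against 208 to 312). Library 6, the highest in Atf3, was the highest in Nppb (883 CPM) and Atf4 (312). In Jun it held 169 CPM, below the 175 of library 1. The higher DMSO share and the state of these wells cannot be told apart as sources of the difference.

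At 24 hours the controls met again. Atf3 held 3.16 to 4.32 CPM in DMSO1 and 3.31 to 4.48 in DMSO2, a difference of 0.018 ± 0.22 (edgeR FDR = 0.985), and of 0.020 ± 0.23 without library 1 (edgeR FDR = 0.992). From 6 to 24 hours it decreased by 1.19 ± 0.21 on the log2 scale in DMSO1 (edgeR FDR = 1.1e-06, and 5.1e-06 without library 1), whereas the change in DMSO2 was -0.22 ± 0.20 (edgeR FDR = 0.35). Library 1 of DMSO1 at 24 hours held 3.98 CPM of Atf3. In 5FU at 24 hours Atf3 itself lay at the control level, from 3.47 to 6.15 CPM. Atf3 therefore could not mark a well that lay toward 5FU.

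5FU, an antimetabolite that blocks thymidylate synthesis and is incorporated into RNA and DNA, gave the early pattern. At 6 hours Gdf15 held 236, 87.8, 91.5, 129, 77.5 and 113 CPM, and Atf3 held 70.2, 39.4, 31.4, 40.0, 32.6 and 37.7 CPM. All 6 libraries lay above all DMSO1 libraries in both genes, as did 13.8% of all genes. The log2 fold change was 3.84 ± 0.31 for Gdf15 (14.3-fold, 13th highest of 14554 genes) and 2.20 ± 0.18 for Atf3 (4.58-fold, 81st highest). Of all genes, 47.9% were called in this comparison.

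Library 1 was the highest of the 5FU wells in both genes, and it also had the lowest TMM factor of all libraries, 0.859. Scaled by its total alone, it held 202 CPM of Gdf15, still the highest. Without it the log2 fold changes were 3.54 for Gdf15 and 1.98 for Atf3.

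At 24 hours the genes parted. Gdf15 held 63.5, 57.1, 60.4, 52.3, 61.8 and 55.4 CPM, the narrowest spread of this gene in any drug group relative to its mean (7.24% coefficient of variation). Atf3 held 6.15, 3.47, 4.57, 5.15, 3.95 and 3.92 CPM, overlapping both controls at that time. Every 24-hour library lay below every 6-hour library of 5FU in both genes, and the share of all genes that did so was not determined. Gdf15 at 24 hours still lay above all DMSO1 libraries of that time other than library 1. With that library left out, 26.8% of all genes lay above DMSO1 in this way.

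The log2 fold change of Gdf15 at 24 hours was 1.88 ± 0.29 with all libraries (3.68-fold, 83rd highest) and 3.05 ± 0.21 without library 1 of DMSO1 (8.31-fold, 38th highest). That of Atf3 was 0.17 ± 0.22 with all libraries and 0.17 ± 0.24 without it. In this comparison 55.8% of genes were called, and 57.1% without library 1. The 24-hour effect minus the 6-hour effect was -1.96 ± 0.42 for Gdf15 and became -0.79 ± 0.28 without library 1, so the drop in the Gdf15 effect rests to a large part on that well. For Atf3 it was -2.02 ± 0.29 and -2.03 ± 0.30. The lower cardiomyocyte and fibroblast marker sums of 5FU at 24 hours stand beside these values, and their part in them was not tested.

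**Figure D2:**
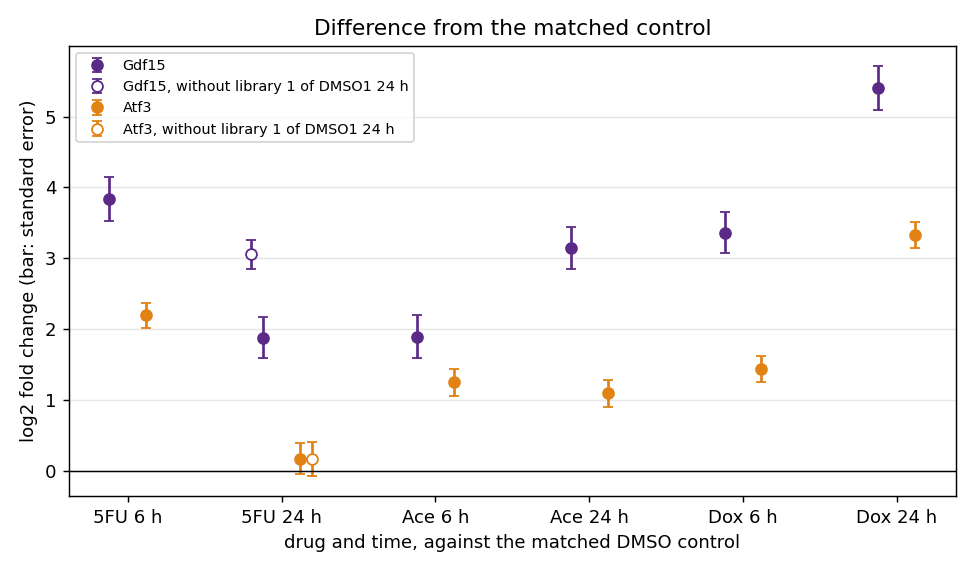
Log2 fold change against the matched DMSO control with its standard error for Gdf15 and Atf3 in the 6 drug comparisons, with open symbols for 5FU at 24 hours without library 1 of DMSO1. Without that library Gdf15 in 5FU stood at 3.84 at 6 hours and 3.05 at 24 hours, while Atf3 went from 2.20 to 0.17.

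Ace, a painkiller whose overdose injures the liver through a reactive metabolite, gave the late pattern in Gdf15. At 6 hours Gdf15 held 31.6, 28.7, 29.8, 29.7, 26.6 and 22.1 CPM. At 24 hours it ran from 54.6 to 73.1 CPM with a median of 61.2, and every 24-hour library lay above every 6-hour library. The share of all genes that did so was not determined. At each time all Ace libraries lay above all DMSO2 libraries, as did 12.4% of all genes at 6 hours and 13.2% at 24 hours. The log2 fold change was 1.89 ± 0.30 at 6 hours (3.72-fold, 44th highest) and 3.15 ± 0.29 at 24 hours (8.88-fold, 11th highest). The difference between these effects was 1.26 ± 0.42. Fibroblast markers were lower in Ace than in DMSO2 at 24 hours, as given above, and their part in these values was not tested.

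Atf3 was raised by a similar amount at both times. It held 11.3, 12.1, 11.1, 10.7, 9.83 and 10.9 CPM at 6 hours, and 7.22 to 9.73 CPM with a median of 8.54 at 24 hours. No Ace library overlapped DMSO2 at its own time. The log2 fold change was 1.25 ± 0.19 at 6 hours (2.38-fold, 140th highest) and 1.09 ± 0.19 at 24 hours (2.13-fold, 425th highest), and these effects differed by -0.16 ± 0.27. Of all genes, 31.7% were called at 6 hours and 37.2% at 24 hours.

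Side by side, Gdf15 went from 77.5 to 236 CPM at 6 hours to 52.3 to 63.5 at 24 hours with 5FU, and from 22.1 to 31.6 to 54.6 to 73.1 with Ace. The drugs were given at different doses with different controls, so no test between them was made.

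Dox, an anthracycline that traps topoisomerase II on DNA and is known for its cardiotoxicity, raised both genes at 6 hours and raised both further at 24 hours. At 6 hours Gdf15 held 61.1 to 93.9 CPM with a median of 80.2, and Atf3 held 9.40 to 15.7 CPM with a median of 12.4. All 7 libraries lay above all 7 DMSO2 libraries in both genes, as did 19.7% of all genes. Gdf15 rose by 3.36 ± 0.29 on the log2 scale (10.3-fold, edgeR FDR = 3.6e-16) and Atf3 by 1.44 ± 0.18 (2.72-fold, edgeR FDR = 2.7e-10). Of all genes, 64.2% were called at this time and 31.5% rose, so a call alone sets neither gene apart. By size of the increase Gdf15 was 121st and Atf3 648th of 14554. Summed smooth muscle markers were 4406 to 8738 CPM in these Dox libraries and 3692 to 4421 in DMSO2, and their part in the increases was not tested.

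At 24 hours the libraries of Dox held 447, 339, 232, 355, 346, 205 and 169 CPM of Gdf15, the highest median of the gene in the series, although library 1 of 5FU at 6 hours (236 CPM) lay above 3 of them. Atf3 held 57.1, 36.4, 32.0, 49.9, 48.8, 32.4 and 22.3 CPM in the same libraries. Again no library overlapped the control, as for 33.6% of all genes. The increase was 5.40 ± 0.31 for Gdf15 (42.3-fold, edgeR FDR = 4.3e-25) and 3.33 ± 0.18 for Atf3 (10.0-fold, edgeR FDR = 1.1e-25), with 81.4% of genes called. The 24-hour effect exceeded the 6-hour effect by 2.04 ± 0.41 for Gdf15 (edgeR FDR = 1.2e-05) and 1.89 ± 0.26 for Atf3 (edgeR FDR = 2.6e-09), in a contrast where 64.8% of genes were called. Summed cardiomyocyte markers stood at 12414 to 16643 CPM in these Dox libraries and at 33869 to 43443 in DMSO2, fibroblast markers were lower as well, and the part of this in the CPM of Gdf15 and Atf3 was not tested.

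In order of the median, Gdf15 was highest in Dox at 24 hours, followed by 5FU at 6 hours, Dox at 6 hours, Ace at 24 hours, 5FU at 24 hours, Ace at 6 hours and the 4 controls. Neighbours in this order overlapped, with 2 exceptions: 5FU at 24 hours lay wholly above Ace at 6 hours, and Ace at 6 hours wholly above DMSO1 at 6 hours. Atf3 was highest in 5FU at 6 hours, followed by Dox at 24 hours, Dox at 6 hours, Ace at 6 hours, DMSO1 at 6 hours, Ace at 24 hours, DMSO2 at 6 hours, 5FU at 24 hours and the 24-hour controls. Here the gaps without overlap were those below Dox at 24 hours and below Ace at 24 hours. For neither gene was the share of all genes with such gaps determined.

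The ratio of Gdf15 to Atf3 within each library condensed these patterns. It is given as the log2 of the ratio of CPM, and only its differences between groups are read. In DMSO2 the ratio was 0.70 ± 0.24 (SD, n = 7) at 6 hours and 0.82 ± 0.21 (SD, n = 7) at 24 hours. Dox brought it to 2.62 ± 0.091 (SD, n = 7) and 2.90 ± 0.17 (SD, n = 7). The difference was 1.92 ± 0.096 (SE) at 6 hours and 2.07 ± 0.10 (SE) at 24 hours. All 7 Dox libraries lay above all DMSO2 libraries each time (two-sided exact permutation test, p = 0.000583, the smallest these groups allow, and the same after adjustment over the 2 tests). The ratio restates the unequal increases of the genes given above, and the share of gene pairs separated as fully was not determined. From 6 to 24 hours with Dox the mean ratio went from 2.62 to 2.90 while the mean level went from 77.7 to 299 CPM for Gdf15 and from 12.5 to 39.8 CPM for Atf3.

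In the groups that the choice of the genes rests on, the ratio is a description. With Ace it was 1.34 ± 0.18 (SD, n = 6) at 6 hours and 2.88 ± 0.11 (SD, n = 7) at 24 hours. With 5FU it was 1.49 ± 0.24 (SD, n = 6) and 3.68 ± 0.29 (SD, n = 6). DMSO1 held 0.0025 ± 0.48 (SD, n = 6) at 6 hours and 0.80 ± 0.14 (SD, n = 5) at 24 hours without library 1, whose own ratio of 3.84 lay among those of 5FU.

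**Figure D3:**
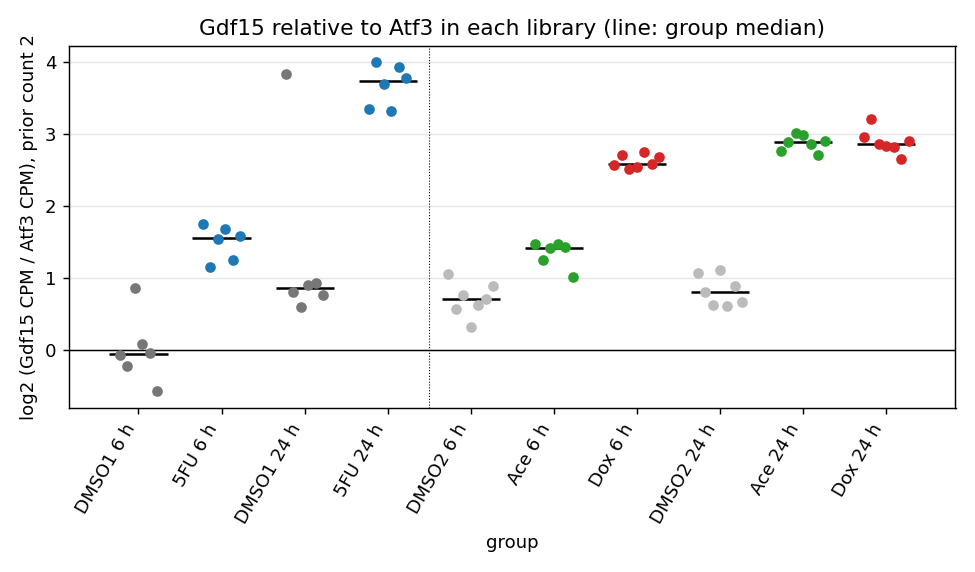
Log2 ratio of Gdf15 to Atf3 CPM in each library, with a line at the group median. The 24-hour drug groups lay at 2.66 or higher, above all controls but library 1 of DMSO1 at 24 hours, which stood at 3.84.

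Within groups, wells that were high in Gdf15 tended to be high in Atf3. After the group mean was subtracted from log2 CPM, Pearson's r over the 65 libraries was 0.44 and Spearman's rho was 0.53, a description, since the choice of the genes used the 5FU, Ace and control libraries. Without the 2 libraries farthest in Gdf15, library 1 of DMSO1 at 24 hours and library 1 of 5FU at 6 hours, r was 0.66. With the total of the library r was 0.013 for Gdf15 and -0.18 for Atf3 over all libraries. Within Dox it was 0.29 for Gdf15 and 0.45 for Atf3 at 6 hours, and -0.52 and -0.63 at 24 hours. The part of the total in the relation of the genes was not tested. Of 10815 other genes with a mean count of at least 100, 3.56% had an r with Gdf15 at least as high as that of Atf3. Counted by size in either direction, the share was 6.49%.

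In the Dox groups, which the choice did not use, the relation was tested. There r was 0.93 at 6 hours (exact permutation p = 0.0032, adjusted p = 0.016 as 1 of 10 groups, n = 7) and 0.94 at 24 hours (exact permutation p = 0.0030, adjusted p = 0.016, n = 7), and without the 2 farthest libraries it was 0.73 and 0.88. Spearman's rho was 0.82 (exact permutation p = 0.034, adjusted p = 0.11) and 0.96 (exact permutation p = 0.0028, adjusted p = 0.028). Of the other genes, 0.915% at 6 hours and 0.795% at 24 hours had an r with Gdf15 at least as high as that of Atf3. Counted by size in either direction, the shares were 1.6% and 1.3%. Over the other 51 libraries r was 0.31. In 5FU at 6 hours r was 0.94 over the 6 libraries but 0.47 without the 2 farthest. The other 7 groups had r from -0.24 to 0.79.

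Libraries 6 and 7 were the lowest of Dox at 6 hours in both genes. They were also lowest in Cdkn1a (704 and 601 CPM against 810 to 909 in the other 5) and in Jun (51.1 and 45.0 against 62.4 to 73.6), and library 7 held 27.4 CPM of Nppb against 196 to 244. At 24 hours library 7 was the lowest in both genes, in Cdkn1a (908 CPM against 975 to 1407) and in Nppb (14.2 against 39.9 to 55.0), and it had the largest total of all libraries, 25738297. Its summed fibroblast markers were 1933 CPM against 3205 to 4089 in the other 6. The part of these differences between wells in the spread of Gdf15 and Atf3 was not tested. Without library 7 of either time the Dox increases were 3.41 and 5.53 for Gdf15 and 1.5 and 3.46 for Atf3 on the log2 scale.

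**Figure D4:**
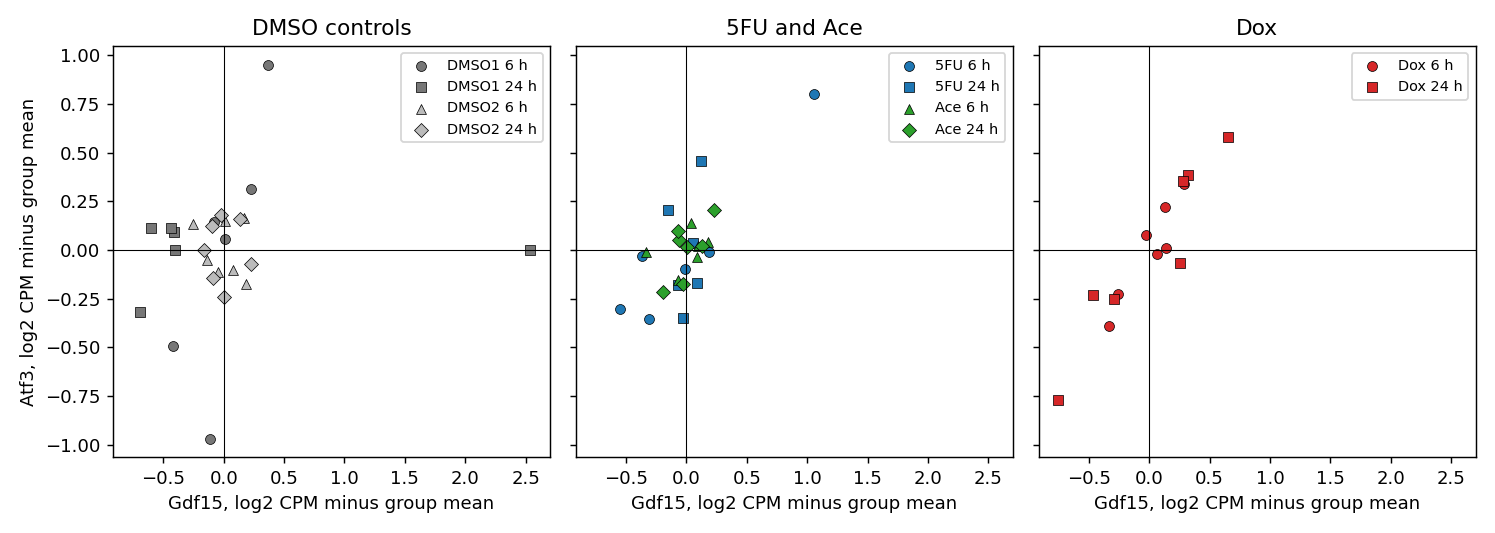
Deviation of Atf3 against deviation of Gdf15 from the group mean, in log2 CPM, for the controls (left), 5FU and Ace (middle) and Dox (right), 1 point for each library. The Dox points lie along a rising line, and the point far right among the controls is library 1 of DMSO1 at 24 hours.

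The known upstream and partner pathways were followed with lists written from general knowledge, whose genes were tested in each drug comparison against all genes. As background, the share of all genes that rose was 23.4% and 28% with 5FU at 6 and 24 hours, 16.5% and 18.2% with Ace, and 31.5% and 40.4% with Dox. The share that fell was 24.5% and 27.8% with 5FU, 15.2% and 19.1% with Ace, and 32.7% and 41% with Dox. Without library 1 of DMSO1 the shares for 5FU at 24 hours were 28.6% and 28.5%. The median log2 fold change of all genes was near 0 throughout, from -0.0094 to 0.0030.

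Genes of ATF4 and its partner CHOP, the transcription factors of the integrated stress response, mostly fell with 5FU. Of the 24 in the table, 12 (50%) fell and 4 (16.7%) rose at 6 hours, with a median log2 fold change of -0.35, and 18 (75%) fell and 2 (8.33%) rose at 24 hours, with a median of -0.88. The counts at 24 hours were the same without library 1 of DMSO1. Atf4 itself fell by 0.44 ± 0.094 and 0.94 ± 0.096 on the log2 scale, and Trib3, a pseudokinase that restrains ATF4 and CHOP, fell by 0.57 ± 0.091 and 1.14 ± 0.093. The largest increase at both times was that of Sesn2, which restrains mTORC1 and is also a p53 target, by 0.96 ± 0.098 and 0.80 ± 0.097. Ddit3, which encodes CHOP, rose by 0.30 ± 0.074 at 6 hours and fell by 0.29 ± 0.074 at 24 hours. Without library 1 of DMSO1 the 24-hour values were -0.98 for Atf4, -1.14 for Trib3, 0.98 for Sesn2 and -0.24 for Ddit3, with the same calls.

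With Ace few of these genes were called at 6 hours, 2 up and 3 down, and at 24 hours 2 rose and 10 fell (41.7%), with a median of -0.21, or 3 and 5 when counts were scaled by library size only. Ddit3 had the largest increase there, 0.70 ± 0.067, at the time when Gdf15 was highest under Ace. Atf4 differed by -0.25 ± 0.088 (edgeR FDR = 0.015) and was not called. With Dox, 5 rose and 11 fell at 6 hours (median -0.30), or 2 and 14 with library size only, and 9 rose and 11 fell at 24 hours (median -0.18). Atf4 fell by 1.42 ± 0.090 and 0.70 ± 0.088, whereas Ddit3 rose by 1.77 ± 0.067 at 24 hours, and Ppp1r15a, a phosphatase subunit that reverses the phosphorylation of eIF2α, rose by 2.27 ± 0.12. These are transcript levels, and ATF4 is controlled mainly through its translation.

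The kinases of eIF2α and the subunits of its phosphatase moved upward with Dox. The list of 7 also holds Eif2s1, which encodes eIF2α itself, and shares Ppp1r15a with the list of ATF4 and CHOP genes. With Dox 6 of the 7 rose at each time and none fell (5 rose and 1 fell at 6 hours with library size only). Eif2s1 was among those that rose, by 0.41 ± 0.056 and 0.99 ± 0.057. It also rose with 5FU at 24 hours, by 0.43 ± 0.062. Eif2ak2, the kinase PKR that double-stranded RNA activates, rose by 1.33 ± 0.078 and 2.11 ± 0.080. With 5FU 3 rose and 1 fell at 6 hours, and 4 rose and 1 fell at 24 hours. With Ace 3 rose at 6 hours, and at 24 hours 1 rose and 1 fell. The largest increase with 5FU at 6 hours was that of Ppp1r15b, the constitutive phosphatase subunit, by 0.83 ± 0.055.

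Most genes of p53 and its targets rose in each comparison other than Ace at 6 hours. Of 24 in the table, 16 (66.7%) rose with 5FU at 6 hours and 17 (70.8%) at 24 hours, with medians of 0.62 and 0.56, and the count at 24 hours was again 17 without library 1 of DMSO1. With Ace 9 (37.5%) rose at 6 hours and 19 (79.2%) at 24 hours, with medians of 0.30 and 0.41. With Dox 17 (70.8%) and 20 (83.3%) rose, with medians of 0.93 and 1.78. No more than 2 of them fell in any comparison, or 4 with Dox at 6 hours when scaled by library size only.

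Cdkn1a rose by 1.87 ± 0.24 and 2.10 ± 0.24 with 5FU (3.04 ± 0.10 at 24 hours without library 1 of DMSO1), by 0.70 ± 0.22 and 1.17 ± 0.22 with Ace, and by 2.46 ± 0.22 and 3.44 ± 0.23 with Dox at 6 and 24 hours. Pmaip1, which encodes the apoptosis inducer NOXA, had the largest increase with Dox, 4.65 ± 0.17 and 7.63 ± 0.19, and with Ace at 24 hours, 1.80 ± 0.19. In library 1 of DMSO1 at 24 hours 18 of the 24 genes (75%) lay above the other 5 controls and 3 lay below them, while of all genes 28% lay above and 28.8% below.

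**Figure D5:**
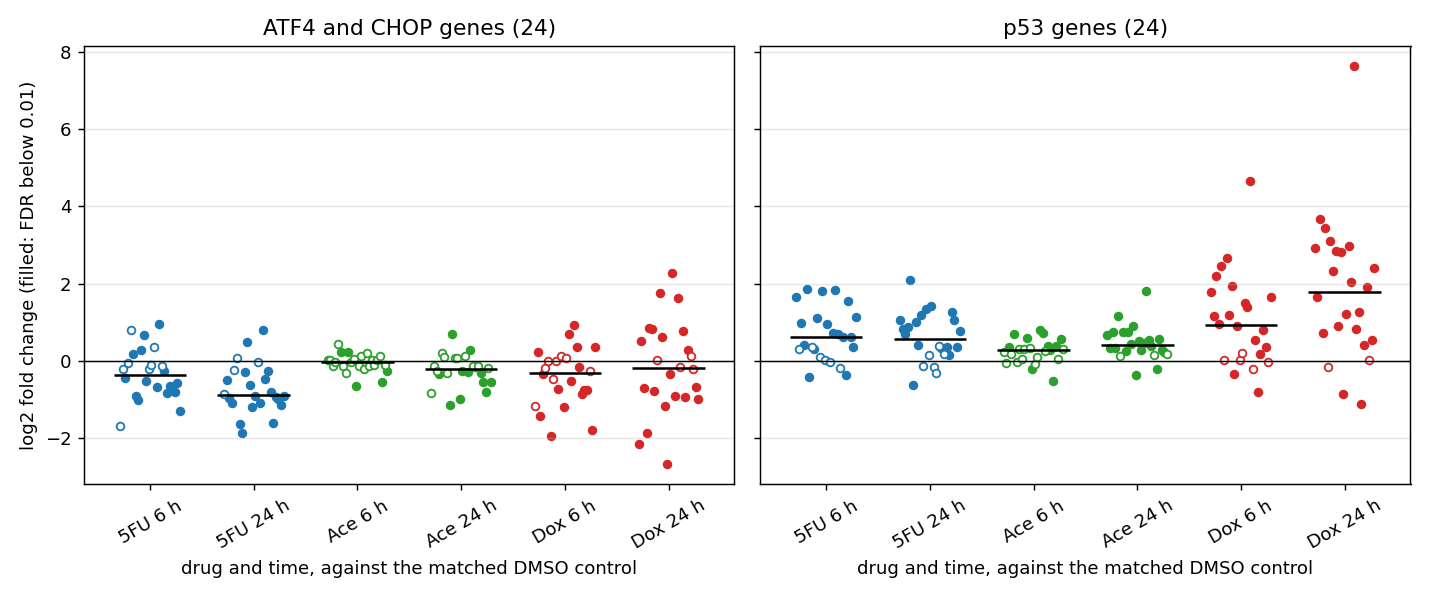
Log2 fold change of the 24 genes of ATF4 and CHOP (left) and of the 24 genes of p53 (right) in the 6 drug comparisons, filled where the FDR was below 0.01, with a line at the median. The medians of the left panel are at or below 0, from -0.88 to -0.022, and those of the right panel are above 0, from 0.30 to 1.78.

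Among 14 genes of AP-1 and other leucine zipper partners of ATF3, 9 (64.3%) rose and 2 fell with 5FU at 6 hours, when Atf3 was at its highest. At 24 hours 5 (35.7%) rose and 1 fell, or 7 (50%) and 1 without library 1 of DMSO1. With Ace 4 rose at 6 hours, and 1 rose and 3 fell at 24 hours (1 and 1 with library size only). With Dox 7 rose and 3 fell at 6 hours, and 12 (85.7%) rose and 1 fell at 24 hours. Jun rose by 0.66 ± 0.11 with 5FU at 6 hours and by 1.51 ± 0.10 with Dox at 24 hours, fell by 0.33 ± 0.10 with Dox at 6 hours, and was not called with Ace or with 5FU at 24 hours. Fosb, an AP-1 subunit of strongly stimulated cells, had the largest increase with 5FU at 6 hours (2.12 ± 0.28) and with Dox at 24 hours (5.43 ± 0.27). Fos had the largest increase in the other 4 comparisons, from 0.99 ± 0.15 with Ace at 24 hours to 3.29 ± 0.15 with Dox at 6 hours.

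Of 18 other immediate early genes, the first genes that signalling switches on, 7 rose and 1 fell with 5FU at 6 hours, and 6 rose and 6 fell at 24 hours (6 and 5 without library 1 of DMSO1). With Ace 5 rose at 6 hours (3 with library size only), and 6 rose and 1 fell at 24 hours. With Dox 7 rose and 6 fell at 6 hours and 16 (88.9%) rose and 1 fell at 24 hours. Egr1, a zinc finger factor, rose in all 6 comparisons, by 0.95 ± 0.14 and 0.93 ± 0.13 with 5FU, 0.60 ± 0.13 and 0.72 ± 0.12 with Ace, and 0.95 ± 0.13 and 1.99 ± 0.13 with Dox. The share of all genes that rose in all 6 was not determined. The EGR1 motif match in the Gdf15 promoter lies within GC boxes, and any part of EGR1 in the level of Gdf15 was not tested. Nr4a3, an orphan nuclear receptor, had the largest increase with Dox, 2.71 ± 0.20 and 4.14 ± 0.20, and Myc, the growth-promoting transcription factor, the largest decrease with 5FU, by 1.31 ± 0.15 and 1.87 ± 0.17. Without library 1 of DMSO1 the 24-hour values were 0.98 for Egr1 and -2.04 for Myc.

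Of the genes for the receptor and the processing of GDF15, 6 of 7 were in the table, and Gfral is not analysed here. Ret, the signalling partner of GFRAL, was at 0.27 to 0.74 CPM in DMSO2 at 24 hours and at 7.34 to 10.7 in Dox, an increase of 4.04 ± 0.21 (edgeR FDR = 8.4e-27). At 6 hours Dox raised it by 0.95 ± 0.23, and with 5FU and Ace it was not called. Furin, a protease that cleaves pro-forms of growth factors, rose with Dox at 24 hours only, by 0.40 ± 0.073. Mmp14, a membrane-bound metalloprotease, fell with Dox and with 5FU at 24 hours by 1.09 ± 0.10 and 0.75 ± 0.11. It also fell with Ace, by 0.42 ± 0.10 at 6 hours and 0.54 ± 0.099 at 24 hours. In all, 3 of the 6 rose with Dox at 6 hours and 5 at 24 hours, where 1 fell. With 5FU 1 rose and 1 fell at 6 hours and 3 fell at 24 hours, with or without library 1 of DMSO1, and with Ace 1 rose and 1 fell at each time.

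Other ligands of the TGF-β superfamily were called downward more often than upward with 5FU and Ace. The list of 17 in the table also holds Bmp1, which encodes a metalloprotease and no ligand. Of the 17, 2 rose and 9 (52.9%) fell with 5FU at 6 hours, and 1 rose and 10 (58.8%) fell at 24 hours (2 and 11 without library 1 of DMSO1). With Ace 8 (47.1%) fell at 6 hours, and 1 rose and 11 (64.7%) fell at 24 hours. With Dox 7 rose and 4 fell at 6 hours, and 11 rose and 4 fell at 24 hours. Of the 16 without Bmp1, 1 rose and 9 fell with 5FU at each time, and with Dox 6 and then 10 rose. Gdf10, a family member expressed by stromal cells, had the largest decrease in all 6 comparisons, where it fell by, among others, 2.55 ± 0.33 with 5FU at 6 hours and 3.13 ± 0.28 with Dox at 24 hours.

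The ATF and CREB relatives of Atf3 moved in both directions, and many of their shares lay near those of all genes given above. Of 15 in the table, 3 (20%) rose and 6 (40%) fell with 5FU at 6 hours. At 24 hours 3 (20%) rose and 5 (33.3%) fell (5 and 5 without library 1 of DMSO1). With Ace 3 (20%) rose and 3 (20%) fell at 6 hours and 4 (26.7%) fell at 24 hours, where none was called with library size only. With Dox 5 (33.3%) rose and 7 (46.7%) fell at 6 hours, and 8 (53.3%) rose and 6 (40%) fell at 24 hours. The lists are not separate: Atf2, Atf7, Creb1, Crem, Batf3 and Jdp2 are also in the AP-1 list. Atf4 and Atf5 are also in that of ATF4 and CHOP. The largest increase with Dox was that of Creb5, 3.43 ± 0.32 and 2.95 ± 0.32. Atf5, an ATF4-related factor, had the largest decrease at 24 hours with 5FU (by 1.10 ± 0.095), Ace (by 0.32 ± 0.086) and Dox (by 1.85 ± 0.090).

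Among 9 other stress-related secreted factors and their receptors in the table, 1 rose and 1 fell with 5FU at 6 hours, and 5 rose and 2 fell at 24 hours, with or without library 1 of DMSO1. With Ace the counts were 1 and 1, then 3 and 2. With Dox 5 rose at 6 hours, and 6 rose and 1 fell at 24 hours. Nppa, the atrial natriuretic peptide gene, had the largest increase with 5FU at 24 hours (1.88 ± 0.17, or 2.07 ± 0.17 without library 1 of DMSO1) and rose by 3.52 ± 0.17 with Dox at 24 hours. Fgf21, another stress hormone of ATF4, is not analysed here.

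The genes whose group means were most like those of Gdf15, by Pearson's r of mean log2 CPM over the 10 groups among 6631 genes with a mean count of at least 100 and a range of at least 1, were Irf1 (r = 0.96), Socs7 (0.96), Slc25a16 (0.96), Cdkn2aip (0.96) and Dck (0.95). Irf1 encodes an interferon-responsive transcription factor, Cdkn2aip a regulator of the p53 pathway, and Dck the kinase that phosphorylates deoxycytidine. For Atf3 they were Zbed4 (r = 0.997), C1h10orf88 (0.96), Gadd45b (0.96), Pard6b (0.96) and Pvr (0.96). Gadd45b is a growth arrest gene of the stress response. Gdf15 and Atf3 had r = 0.79 with each other, and Atf3 came 307th in likeness to Gdf15. With Spearman's rho, 1 of the 5 genes nearest to Gdf15 and 2 of the 5 nearest to Atf3 stayed among the nearest 5.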

How the data were processed

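PolyA RNA of 65 cultures in 10 groups was sequenced in paired reads. The authors assigned reads to rat transcripts with kallisto 0.46.0 (Ensembl v96), summed them to Entrez genes with tximport and dropped genes low throughout. The deposited values are estimated counts, whole numbers without normalization, for 14554 genes. Symbols, used for names only, came from the GRCr8 annotation (14009 matched). Columns carry no replicate numbers, so libraries are numbered within groups as labels only.

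Counts were fitted with edgeR 4.0.16 in R 4.3.3 (TMM, glmQLFit and glmQLFTest, 1 model with 10 groups) with calls at a Benjamini-Hochberg FDR below 0.01 over all genes. Standard errors are the log2 fold change divided by the square root of F. Log2 CPM used a prior count of 2. Permutation tests were two-sided and exact. The standard errors include the spread between wells as the model estimated it, and no spread between cell preparations. The pipeline was tested on simulated counts. No pair of libraries within a group agreed within sampling noise (chi-square per gene of at least 2.84 over 180 pairs).

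The members and the 9 gene lists were chosen with earlier results of these data known. Named are Gdf15, Atf3, genes of known roles and the 5 genes most like each member. Of the largest increase and decrease of each list in each drug comparison, only some are named. Alternatives were the DESeq2 1.42.0 Wald test, its size factors or library size only in edgeR, only the groups compared, stricter count filters, an FDR below 0.1 and leaving out each library. Viability, metabolomics and the authors' own table of fold changes were not used here.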

Additional observations from a re-analysis of the deposited data

Results flagged for a closer look

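In 3 of 20 sets of libraries (each gene in each group) the highest library stood apart by Dixon's criterion, and in 1 the lowest did. Chance alone marks about 1 in 20 sets. Library 1 of 5FU at 6 hours was the highest in Gdf15 at 236 CPM and in Atf3 at 70.2 CPM. Library 1 of DMSO1 at 24 hours held 58.5 CPM of Gdf15 against at most 7.54 in the other 5. Library 5 of the same group was the lowest in Atf3, at 3.16 CPM. The effect of Dox differed between the times by 2.04 on the log2 scale for Gdf15 and by 1.89 for Atf3 (edgeR interaction FDR of 1.2e-05 and 2.6e-09), and all Dox libraries of both times lay above all their controls.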

How the results depend on the processing

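The Dox increases of both genes, their growth from 6 to 24 hours, the higher Atf3 in DMSO1 than in DMSO2 at 6 hours and its decrease with time in DMSO1 kept their direction and their side of the threshold under every alternative run. These were DESeq2's Wald test, its size factors or library size only in edgeR, only the groups compared, filterByExpr (14494 genes), a minimum count of 10 throughout (11908 genes), an FDR below 0.1 and each library left out in turn. The difference in Gdf15 between the controls at 24 hours was called with DESeq2 (1.15) and at an FDR below 0.1 (1.17), and its change with time in DMSO1 was called with DESeq2 (0.88), with library size only (0.93) and at an FDR below 0.1 (0.89). With 1 library left out, that change was called in 5 of 12 fits (lowest edgeR FDR = 0.0037). Over the libraries left out, that change ran from -0.28 to 1.06, the 5FU effect on Gdf15 at 24 hours from 1.72 to 3.05, and its difference from the 6-hour effect from -2.12 to -0.79. The values -0.28, 3.05 and -0.79 were those without library 1 of DMSO1 at 24 hours. The ratio of the genes with Dox kept its call with a prior count of 0.5 or 5, with library size only and without any 1 library. Depth limited none of these, since the lowest count of either gene was 50.

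The number of genes called differed by over 1.5 times from the main count in these cases. At an FDR below 0.1 it was 7120 against 4619 for Ace at 6 hours, 3867 against 1694 for the change of the Ace effect, 4751 against 2397 for DMSO1 against DMSO2 at 6 hours and 764 against 63 at 24 hours. With only the groups compared it was 2684 for the change of the Ace effect, 1565 for the controls at 6 hours and 17 for those at 24 hours. With DESeq2 it was 181 for the controls at 24 hours, and with a library left out it ran from 10 (without library 1 of DMSO1) to 162 (without its library 4). Summed over the 6 drug comparisons, falling members of the eIF2α kinase list numbered 5 with library size only against 3, and those of the AP-1 list 16 at an FDR below 0.1 against 10. Of 108 list counts (9 lists, 6 comparisons, 2 directions), 17 moved by over 1.5 times with library size only. That scaling shifted the median of all genes by -0.15 for Dox at 6 hours and 0.27 for the change of the Dox effect. It turned the majority direction in 1 of 54 cases, the immediate early genes with Dox at 6 hours (7 up, 8 down), and ended 4 calls among 138 of named genes, those of Ddit3 with 5FU and Ace at 6 hours, Cdkn1a with Ace at 6 hours and Atf5 with Ace at 24 hours. DESeq2 added 1, Ppp1r15a with 5FU at 6 hours. The list counts for 5FU and the likeness without library 1 of DMSO1, the ligand counts without Bmp1, and the ratio with library size only, were alternatives chosen after seeing the data. No paired analysis was possible because the columns carry no replicate numbers.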
